A study of Caenorhabditis elegans with 119 samples.

Results

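The 5 superoxide dismutase genes (sod-1 to sod-5) and the 3 catalase genes (ctl-1 to ctl-3) of Caenorhabditis elegans were followed through all RNA-seq libraries of the series of whole worms. They were chosen by symbol, as 8 of the 46926 genes counted in each of 3 tables. The study asked how sulforaphane (SFN), an isothiocyanate that forms when broccoli is cut or chewed, acts on the transcriptome of ageing adults. Worms of each library numbered about 50, were kept at 20 °C on nematode growth medium with Escherichia coli OP50-1, and were placed from day 1 of adulthood on plates with 51 µM FUdR, an inhibitor of DNA synthesis that stops progeny from developing.

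SFN and its control were both given in DMSO at a final 0.25%, so every worm in the series, controls included, had FUdR and DMSO. The dose of SFN was not given in the sources used here. The wild-type strain N2 was sampled on SFN and on DMSO at adult days 2, 4, 8, 12 and 16, with 4 libraries per age and treatment. PX991, labelled daf-16(fx107), was sampled on SFN and on DMSO at days 4 and 12 with 4 libraries each. EU1, labelled skn-1(zu67), was sampled on SFN with 5 libraries at day 4 and 6 at day 12, and on DMSO with 6 libraries at each age. A further 40 N2 libraries on DMSO alone came from trials 2 and 3, with 4 per age and trial. The labels do not say what either allele changes, nor whether the EU1 worms collected were homozygous. The skn-1 locus itself averaged 98.3 to 126 CPM (counts per 1000000 library counts, scaled over all libraries) in the 4 EU1 groups, against 248 to 313 CPM in the 10 N2 groups of the treatment experiment. The daf-16 locus averaged 97.1 to 163 CPM in the 4 PX991 groups, against 144 to 238 CPM in the same N2 groups, and a count over the whole gene does not check either allele.

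Superoxide dismutases turn superoxide, a by-product of respiration, into oxygen and hydrogen peroxide, and catalases split hydrogen peroxide into oxygen and water. In C. elegans sod-1 and sod-5 encode cytosolic copper/zinc enzymes, sod-4 an extracellular copper/zinc enzyme, and sod-2 and sod-3 mitochondrial manganese enzymes. ctl-1 encodes a cytosolic catalase, ctl-2 the peroxisomal one, and ctl-3 a further, closely related catalase. sod-3 is a standard readout of DAF-16, the FOXO transcription factor restrained by insulin signalling, and the catalases and several dismutases are known to respond to DAF-16 and to SKN-1, the worm counterpart of the mammalian factor NRF2 that isothiocyanates activate.

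The 3 catalase genes lie side by side on the minus strand of chromosome II in WBcel235. ctl-2 (WBGene00000831) spans 14299556 to 14302027, ctl-1 (WBGene00000830) spans 14303568 to 14306260, and ctl-3 (WBGene00013220) spans 14307798 to 14310779, with gaps of 1540 and 1537 bases between them. They are close copies, so reads that fit more than 1 of them may have been split or lost, and the level of ctl-1 and ctl-3 beside the far more abundant ctl-2 is to that extent uncertain. sod-1 (WBGene00004930) lies at 6972706 to 6973887 and sod-5 (WBGene00007036) at 4417633 to 4419130 on the same chromosome. sod-2 (WBGene00004931) lies on chromosome I at 8434550 to 8435807, sod-4 (WBGene00004933) on chromosome III at 9496884 to 9500375, and sod-3 (WBGene00004932) on chromosome X at 17092753 to 17094306. Reads were counted without a strand setting in the table whose command is recorded, so reads of opposite genes cannot be told apart where exons overlap. The longest such overlap was 175 bases, between sod-4 and ctr-9.

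Library totals ran from 444501 to 12536097 counts in the N2 treatment experiment, from 1071727 to 8611922 in trials 2 and 3, from 585309 to 5460987 in PX991 and from 2056562 to 10286438 in EU1. The N2 DMSO libraries day 2 replicate 1 and day 4 replicate 4 stood apart, with 705162 and 444501 counts and the fewest genes detected at a common depth. Where leaving them out changed a member's call between SFN and DMSO at an age, or between strains, the value without them is given.

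Compared per length, as RPKM, the transcript level of the family was carried by 3 genes. The median over all libraries was 131 RPKM for sod-1, 121 RPKM for sod-2 and 37.9 RPKM for ctl-2. sod-4 followed with 13.5 RPKM, ctl-3 with 3.47 RPKM, ctl-1 with 2.25 RPKM, sod-3 with 1.75 RPKM and sod-5 with 0.501 RPKM. sod-1 and sod-2 did not separate, since sod-1 had the higher mean in 19 of 28 groups and lay wholly above sod-2 in 11. sod-4 had a higher mean than ctl-3 in 28 of 28 groups and did not overlap it in 24. ctl-3 and ctl-1 changed places from group to group, with the higher mean in ctl-3 in 15 of 28 and no overlap in that direction in 6.

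In N2 no member was called between SFN and DMSO at days 2 and 4. The called differences lay at days 8, 12 and 16, each towards more transcript on SFN. Of the 7 members tested, 0 passed an adjusted p of 0.05 at day 2, where 4.33% of the 12735 genes tested were called, and 0 at day 4, where 10.3% were called. At an unadjusted p under 0.05 there were 2 members at day 2 and 1 at day 4, while DESeq2 called 0 and 1 and limma-voom 1 and 0. At day 8 sod-1 alone rose, against 3.53% of all genes called and 2.84% called higher. At days 12 and 16, 4 of 7 members rose, namely sod-1, sod-3, ctl-1 and ctl-2, where 18.8% and 19.3% of all genes were called and 13.8% and 11.9% were called higher. These are the ages at which library depth also parted the treatments. The ribosomal share parted them at both ages and at day 2, where no member was called. Its means on SFN and DMSO were 6.65 and 1.31% at day 2, 2.93 and 0.81% at day 12, and 1.85 and 0.62% at day 16. In the deposited headers, the DMSO libraries of days 12 and 16 also carry a prefix number that no SFN library carries. Only at day 8 do the treatments share a prefix number. What the prefix stands for is not stated, and it was not a term of the fit. Outside day 8 its part cannot be told apart from that of SFN. The median log2 fold change over the 7 members was -0.11, 0.70, -0.10, 0.54 and 0.38 at days 2, 4, 8, 12 and 16. Over all genes tested it was 0.07, 0.10, -0.02, 0.00 and -0.01. The test of whether the SFN effect differed between ages passed for 2 of 7 members, ctl-2 and sod-1, and for 13% of genes. ctl-1 did not pass it (adjusted p = 0.0869), so the calls do not show a build-up with age for the family.

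**Figure D1:**
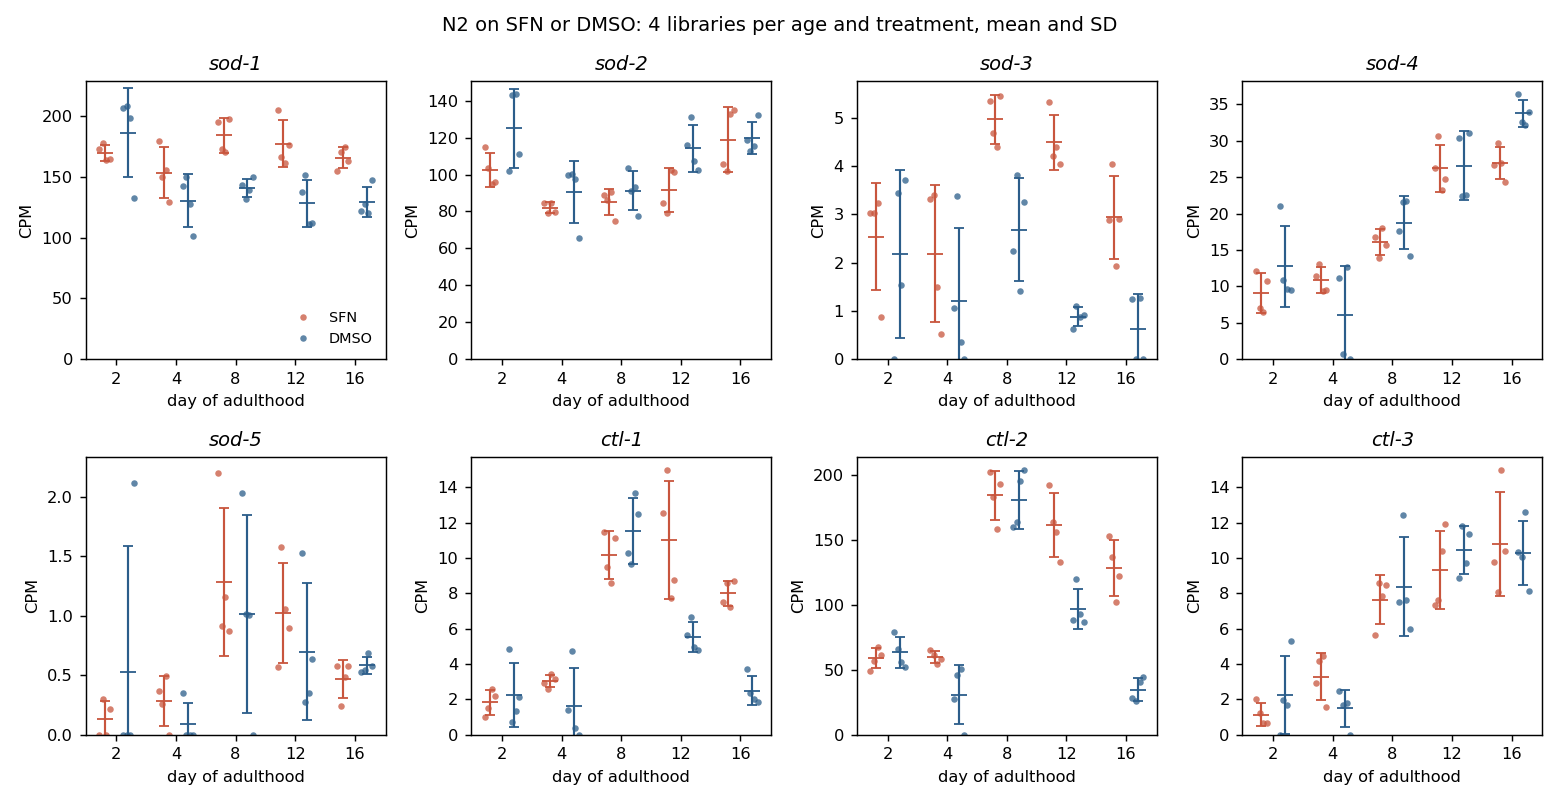
CPM of each member (vertical axes, linear, each from 0) by day of adulthood in N2 on SFN and on DMSO; points are single libraries, 4 per age and treatment, with the mean and SD. At day 16 ctl-2 lies between 102 and 153 CPM on SFN and between 26.3 and 44.2 CPM on DMSO, while sod-2 overlaps at every age.

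Among the dismutases, sod-1 was the abundant cytosolic gene. On day 12 it reached 205, 167, 161 and 177 CPM in the 4 SFN libraries, against 137, 151, 112 and 112 CPM in the 4 DMSO libraries. The SFN libraries were all above the DMSO libraries, and the log2 fold change was 0.54 ± 0.12 (SE; adjusted p = 0.000479). On day 16 the levels were 155, 170, 175 and 163 CPM with SFN and 122, 128, 120 and 148 CPM with DMSO. Here too the groups did not overlap, and sod-1 was higher by 0.38 ± 0.12 (adjusted p = 0.0207). This call was lost when SFN replicate 2 or 3 or DMSO replicate 1 or 3 was left out, at adjusted p of 0.0516 to 0.0623.

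At day 8 sod-1 had 196, 173, 171 and 197 CPM on SFN and 144, 132, 139 and 150 CPM on DMSO. The groups did not overlap, and the log2 fold change of 0.41 ± 0.12 passed narrowly (adjusted p = 0.0452). Leaving out any library other than SFN replicate 3 lost the call, with adjusted p up to 0.199. At day 2 the order of the means was the other way, 170 ± 6.51 CPM on SFN and 186 ± 36.4 CPM on DMSO (SD, n = 4 each), and the groups overlapped; DMSO replicate 4, at 132 CPM, was far below the other three. Over the 5 ages, sod-1 stayed between group means of 153 and 184 CPM on SFN, while the DMSO mean was 186 CPM at day 2 and 128 to 141 CPM from day 4 on. The test of whether the SFN effect on sod-1 differed between ages gave an adjusted p of 0.0491, which was lost in 32 of 47 alternatives, among them leaving out N2 DMSO day 2 replicate 1 (adjusted p = 0.0677).

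sod-3, the mitochondrial manganese enzyme used as a DAF-16 reporter, had few reads. At day 12 the 4 SFN libraries held 47, 16, 25 and 18 counts, or 5.32, 4.20, 4.40 and 4.05 CPM, against 7, 12, 10 and 13 counts, or 0.628, 1.11, 0.869 and 0.920 CPM, in the DMSO libraries. Each SFN library was above every DMSO library, with a log2 fold change of 2.40 ± 0.60 (adjusted p = 0.00222). At day 16 the SFN libraries held 15, 17, 12 and 10 counts, and the DMSO libraries 14, 0, 13 and 0 counts. In CPM these were 2.88, 4.05, 1.93 and 2.89 on SFN and 1.24, 0, 1.27 and 0 on DMSO, without overlap. The fold change was 2.14 ± 0.63 (adjusted p = 0.0127), and the call was lost without DMSO replicate 2 or 4, the libraries at 0, at adjusted p of 0.0505 each, and in a fit of only the 2 groups (adjusted p = 0.058).

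At day 8 sod-3 also separated the groups, at 5.34, 4.68, 4.40 and 5.45 CPM on SFN against 2.25, 3.82, 1.41 and 3.25 CPM on DMSO. The difference of 0.95 ± 0.59 did not pass (adjusted p = 0.758). At days 2 and 4 sod-3 overlapped between treatments. The DMSO means of this experiment, 0.881 CPM at day 12 and 0.626 CPM at day 16, were below those of the other N2 collections on DMSO. There sod-3 averaged 3.32 CPM in trial 2 and 2.07 CPM in trial 3 at day 12, and 1.99 and 2.71 CPM at day 16. Trial 2 at day 12 (up to 5.82 CPM) and both trials at day 16 (up to 2.56 and 4.08 CPM) reached into the range on SFN.

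The other mitochondrial dismutase, sod-2, passed at no age. Its means were 102, 82.1, 85.1, 91.9 and 118.9 CPM on SFN from day 2 to day 16 and 125, 90.7, 91.3, 114 and 120 CPM on DMSO, and the groups overlapped at each age. The log2 fold change lay between -0.32 and 0.00. At day 2 the value of -0.32 ± 0.13 (adjusted p = 0.154) became -0.40 and passed (adjusted p = 0.0186) without the 2 DMSO libraries with the fewest genes.

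sod-4, the extracellular enzyme, also passed at no age. At day 16 it had 26.7, 29.8, 26.9 and 24.3 CPM on SFN and 36.4, 32.5, 32.2 and 34 CPM on DMSO. The SFN libraries all lay below the DMSO libraries, but the difference of -0.31 ± 0.28 was within the error of the fit (adjusted p = 0.487). sod-5, the second cytosolic gene, was at the limit of detection: it had 0 counts in 44 libraries and at most 19 in any, and it was below the filter on low counts in each fit. Within each treatment its highest group mean in N2 was at day 8, 1.28 ± 0.622 CPM on SFN and 1.01 ± 0.830 CPM on DMSO (SD, n = 4 each). In EU1 on DMSO it had 1 to 7 counts in each of 6 libraries at day 12 and 0 counts in all 6 at day 4, which allows up to 0.151 CPM over that group, counting error only. In the EU1 fit without a count filter this change with age in sod-5 passed (adjusted p = 0.0012).

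Among the N2 comparisons of SFN with DMSO, the peroxisomal catalase ctl-2 at day 16 had the smallest adjusted p of any member. It had 153, 137, 102 and 122 CPM on SFN, against 28.5, 26.3, 40.3 and 44.2 CPM on DMSO. The lowest SFN library had more than any DMSO library, and the log2 fold change was 1.90 ± 0.21 (adjusted p = 1.07e-08). At day 12 ctl-2 had 193, 164, 156 and 133 CPM on SFN and 88.8, 120, 92.7 and 87.0 CPM on DMSO. Again without overlap, it was higher by 0.81 ± 0.20 (adjusted p = 0.00254). Both calls held in each of 14 alternatives, with log2 fold changes of 0.66 to 0.93 at day 12 and 1.79 to 2.04 at day 16. In the trials on DMSO, ctl-2 at day 12 had 137 to 163 CPM in trial 2 and 61.0 to 87.3 CPM in trial 3. At day 16 it had 48.9 to 109 CPM in trial 2 and 27.3 to 62.1 CPM in trial 3. Trial 2 reached into the range on SFN at both ages, and trial 3 at neither. N2 on SFN was collected together, so the SE holds no spread between collections.

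At day 8 ctl-2 did not separate the treatments, at 203, 183, 159 and 193 CPM on SFN and 160, 164, 196 and 204 CPM on DMSO (log2 fold change 0.05 ± 0.20). At day 4 it had 65.3, 61.2, 54.4 and 58.2 CPM on SFN against 27.4, 45.7, 50.4 and 0 CPM on DMSO. The groups did not overlap there, and the difference of 0.70 ± 0.24 narrowly missed (adjusted p = 0.0548). The library at 0 is the shallowest of the experiment, DMSO replicate 4 with 444501 counts; without it the log2 fold change was 0.56 and the adjusted p 0.0496. DESeq2 also called it (adjusted p = 0.0064), as did edgeR without DMSO replicate 3 (0.97, adjusted p = 0.00917). The SFN effect on ctl-2 differed between the 5 ages (adjusted p = 4.29e-05, in a test that called 13% of genes), and this held in all 46 alternatives run.

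The time course of ctl-2 shows where the treatments parted. On both treatments it was low at days 2 and 4 and highest at day 8, with 184 ± 18.8 CPM on SFN and 181 ± 22.1 CPM on DMSO (SD, n = 4 each). Thereafter it fell on both, but to 129 ± 21.6 CPM at day 16 on SFN and to 34.8 ± 8.78 CPM on DMSO. The change at day 16 against day 8, a contrast chosen after these values were seen, was -0.58 ± 0.20 on SFN (adjusted p = 0.0305) and -2.43 ± 0.21 on DMSO (adjusted p = 7.51e-12). In this contrast 2 of 7 members passed on SFN, with 25.2% of genes, and 5 of 7 on DMSO, with 35.4% of genes. The fall on SFN was not called without SFN day 8 replicate 1, 2 or 4 or day 16 replicate 3 or 4, at adjusted p up to 0.128. The test of the difference between those changes gave 1.85 ± 0.29 (adjusted p = 5.03e-05), where 2 of 7 members and 4.73% of all genes passed.

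The cytosolic catalase ctl-1 also separated the treatments at days 12 and 16, at lower counts. At day 16 it had 7.49, 8.57, 7.25 and 8.68 CPM on SFN (30 to 45 counts) and 3.71, 2.38, 2.05 and 1.86 CPM on DMSO (16 to 42 counts). The groups were apart, with a log2 fold change of 1.67 ± 0.38 (adjusted p = 0.000897) that held in all 14 alternatives. At day 12 the levels were 12.57, 15, 7.75 and 8.77 CPM on SFN and 5.66, 6.65, 4.95 and 4.81 CPM on DMSO. They did not overlap either, and the fold change was 1.07 ± 0.35 (adjusted p = 0.0253), a call lost without a count filter (adjusted p = 0.0884) and without SFN replicate 1 or 2 or DMSO replicate 1, 3 or 4 (adjusted p up to 0.117). At day 8 the means were 10.2 ± 1.36 CPM on SFN and 11.5 ± 1.88 CPM on DMSO, and on SFN the highest mean was that of day 12, 11.01 ± 3.35 CPM (SD, n = 4 each). Its change at day 16 against day 8 on SFN did not pass (-0.41, adjusted p = 0.44). The change at day 16 against day 8 differed between treatments by 1.83 ± 0.52 (adjusted p = 0.0269). That difference was lost without a count filter (adjusted p = 0.0746) and, at adjusted p of 0.05004 to 0.0682, without SFN day 8 replicate 2 or 3, SFN day 16 replicate 2, DMSO day 8 replicate 3 or 4, or DMSO day 16 replicate 2 or 4.

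ctl-3, in contrast, had its groups overlapping at every age. Its means were 1.13, 3.29, 7.65, 9.32 and 10.8 CPM on SFN from day 2 to day 16 and 2.25, 1.49, 8.39, 10.5 and 10.3 CPM on DMSO. The difference at day 2 of -1.45 ± 0.54 (adjusted p = 0.118) passed without the 2 DMSO libraries with the fewest genes (-1.58, adjusted p = 0.0401). Summed over the 3 catalases, the level at day 16 was 147 ± 19.4 CPM on SFN and 47.6 ± 8.22 CPM on DMSO (SD, n = 4 each). The sum does not depend on how reads were divided among the copies, but reads lost for fitting more than 1 copy would be missing from it. ctl-2 made up 87.2% of that sum on SFN and 73.2% on DMSO, shares that do depend on the division.

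Whole worms were sampled, so more RNA per cell and more cells of a type cannot be told apart, and markers of several tissues moved with the catalases at these ages. Of all genes tested, 18.8% were called at day 12 and 19.3% at day 16, with 13.8% and 11.9% called higher. Of 12 intestine markers, 6 rose and 0 fell on SFN at day 12, and 6 rose and 2 fell at day 16. Their summed level at day 16 was 5154 to 9769 CPM on SFN and 2569 to 4585 CPM on DMSO, and at day 12 it was 19180 to 32760 CPM on SFN and 11170 to 16520 CPM on DMSO. Of 10 body wall muscle markers, 10 rose at day 12 (1136 to 1643 CPM on SFN, 519.6 to 570.2 CPM on DMSO) and 5 at day 16 (623 to 1199 CPM on SFN, 587.2 to 761.5 CPM on DMSO). Of 5 hypodermis and cuticle markers tested, 4 rose at each of these ages. Their summed level was 932.8 to 1716 CPM on SFN and 211.1 to 291.8 CPM on DMSO at day 12, and 455.2 to 688.2 CPM on SFN and 152.9 to 362.1 CPM on DMSO at day 16. Of 12 germline and oocyte markers, 0 passed at day 12 and 9 rose at day 16 (11180 to 12560 CPM on SFN, 9310 to 9687 CPM on DMSO). No intestine, muscle or germline marker was at 0 throughout a group, whereas 3 of the 10 listed hypodermis and cuticle markers were at 0 in all SFN libraries at day 16 and 1 in all DMSO libraries. The part of these shifts in the sod and ctl results was not tested.

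**Figure D2:**
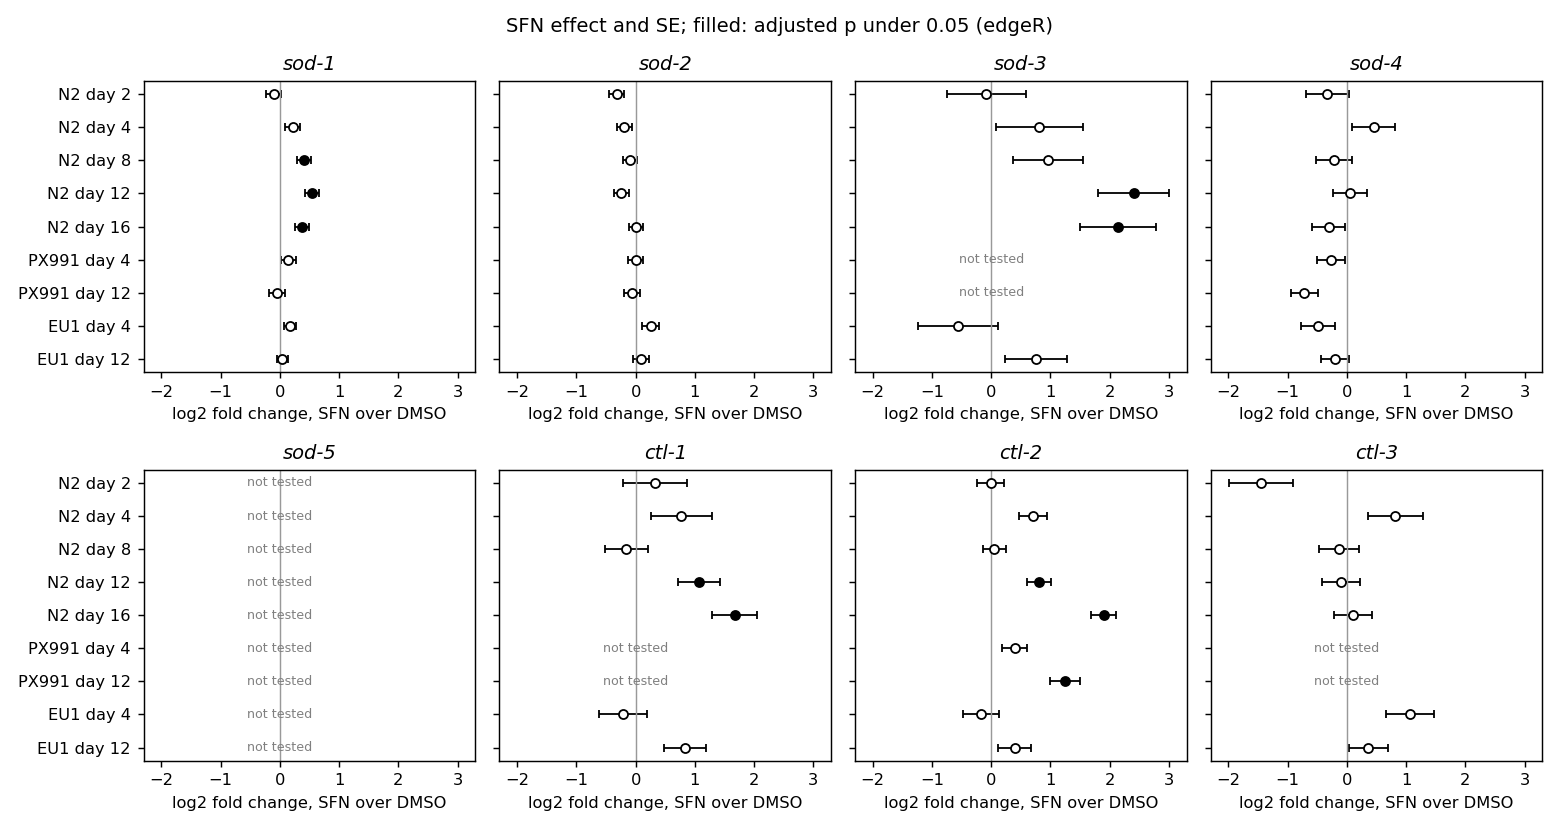
Log2 fold change of SFN over DMSO with its SE (horizontal axis) for each member, by strain and day (rows); filled symbols mark an adjusted p under 0.05, and members below the filter on low counts have no point. ctl-2 is filled in N2 at day 12 (0.81) and day 16 (1.90) and is the only filled member in PX991 at day 12 (1.25), and no member is filled in EU1.

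The comparisons in the mutants ask whether the response to SFN needs DAF-16 or SKN-1. In PX991 only sod-1, sod-2, sod-4 and ctl-2 had enough counts to be tested. At day 4, 0 of 4 passed, against 0.506% of the 10073 genes tested, and 0 at an unadjusted p under 0.05 or in DESeq2. At day 12, 1 of 4 passed, against 4.69% of genes, and it was again ctl-2. It had 61.8, 36.8, 39.4 and 39.4 CPM on SFN and 21.9, 14.6, 20.1 and 18 CPM on DMSO. The groups did not overlap, and the log2 fold change was 1.25 ± 0.25 (adjusted p = 0.00474), with 1.04 to 1.37 over 15 alternatives that all kept the call. Beside it, 4 of 12 intestine markers rose, with a summed level of 7650 to 19710 CPM on SFN and 2827 to 4075 CPM on DMSO, and none was at 0 in either group; their part in the ctl-2 result was not tested.

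sod-1 showed no such difference in PX991. At day 12 it had 63.6, 80.1, 55.4 and 70.7 CPM on SFN and 66.1, 76.3, 65.5 and 75.2 CPM on DMSO, which overlap, with a log2 fold change of -0.05 ± 0.14 (adjusted p = 0.872). sod-2 differed by -0.06 ± 0.14 (adjusted p = 0.856). sod-4 had 37.8, 33.3, 20.4 and 19.3 CPM on SFN and 50.6, 41.2, 54.5 and 37.6 CPM on DMSO. The 2 groups met at their edges, and the difference of -0.72 ± 0.22 missed (adjusted p = 0.068); it passed without SFN replicate 1 (-0.90, adjusted p = 0.0314) and in DESeq2 (adjusted p = 0.0426). sod-3 and ctl-1 were nearly absent from PX991 at day 12. Over the 4 libraries of each group sod-3 had 1 count on SFN and 4 on DMSO, and ctl-1 had 1 on SFN and 7 on DMSO, too few for a fold change.

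In EU1, 0 of 7 members passed at day 4, where 0.251% of the 11170 genes tested did, and 0 of 7 at day 12, where 19.3% did. At an unadjusted p under 0.05 the count was 1 of 7 at each age, and DESeq2 called 0 at day 4 and 1 at day 12. ctl-1 came nearest at day 12, with 4.47, 7.14 and 10.1 CPM (lowest, median and highest of 6) on SFN and 2.06, 3.69 and 6.50 CPM on DMSO. The ranges overlapped, and the log2 fold change was 0.83 ± 0.35 (adjusted p = 0.0985). ctl-2 had 53.5, 79.3 and 120 CPM on SFN and 41.6, 53.3 and 110 CPM on DMSO, with a difference of 0.40 ± 0.28 (adjusted p = 0.329). DMSO replicate 1 was the highest control for both genes; without it ctl-1 was higher by 1.06 and ctl-2 by 0.68, and both passed at an adjusted p of 0.0474. sod-1 differed by 0.04 ± 0.10 and sod-2 by 0.10 ± 0.14 at that age. The intestine markers moved here as well, with 9 of 12 higher and a summed level of 12050 to 19000 CPM on SFN against 2153 to 7870 CPM on DMSO and no marker at 0 throughout; their part was not tested.

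Whether the SFN effect differed between a mutant and N2 was tested directly, and 0 of 7 members passed in PX991 or EU1 at day 4 or day 12, where 0.254% and 3.92% of the 12589 genes tested did for PX991 and 9.6% and 1.45% for EU1. sod-3, ctl-1 and ctl-3, below the filter in PX991 alone, entered these tests through the other strains. At an unadjusted p under 0.05 there were 0 members at day 4 and 3 at day 12 in PX991, and 2 at each age in EU1; DESeq2 called 0 at day 4 and 1 at day 12 in each strain. The all-gene median of these differences was -0.11 to -0.13 on the log2 scale in 3 of the 4 tests and 0.01 for PX991 at day 12. The nearest was sod-1, whose effect at day 12 was lower than in N2 by 0.54 ± 0.19 in PX991 (adjusted p = 0.0928), with adjusted p of 0.0209 to 0.416 over 23 alternatives. In EU1 it was lower by 0.49 ± 0.16 (adjusted p = 0.113), with adjusted p of 0.00778 to 0.568 over 27 alternatives. DESeq2 and a strict count filter called sod-1 in both. For ctl-2 the difference at day 12 was 0.50 ± 0.49 for PX991 and -0.40 ± 0.39 for EU1, so a difference of either sign remains within the error.

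**Figure D3:**
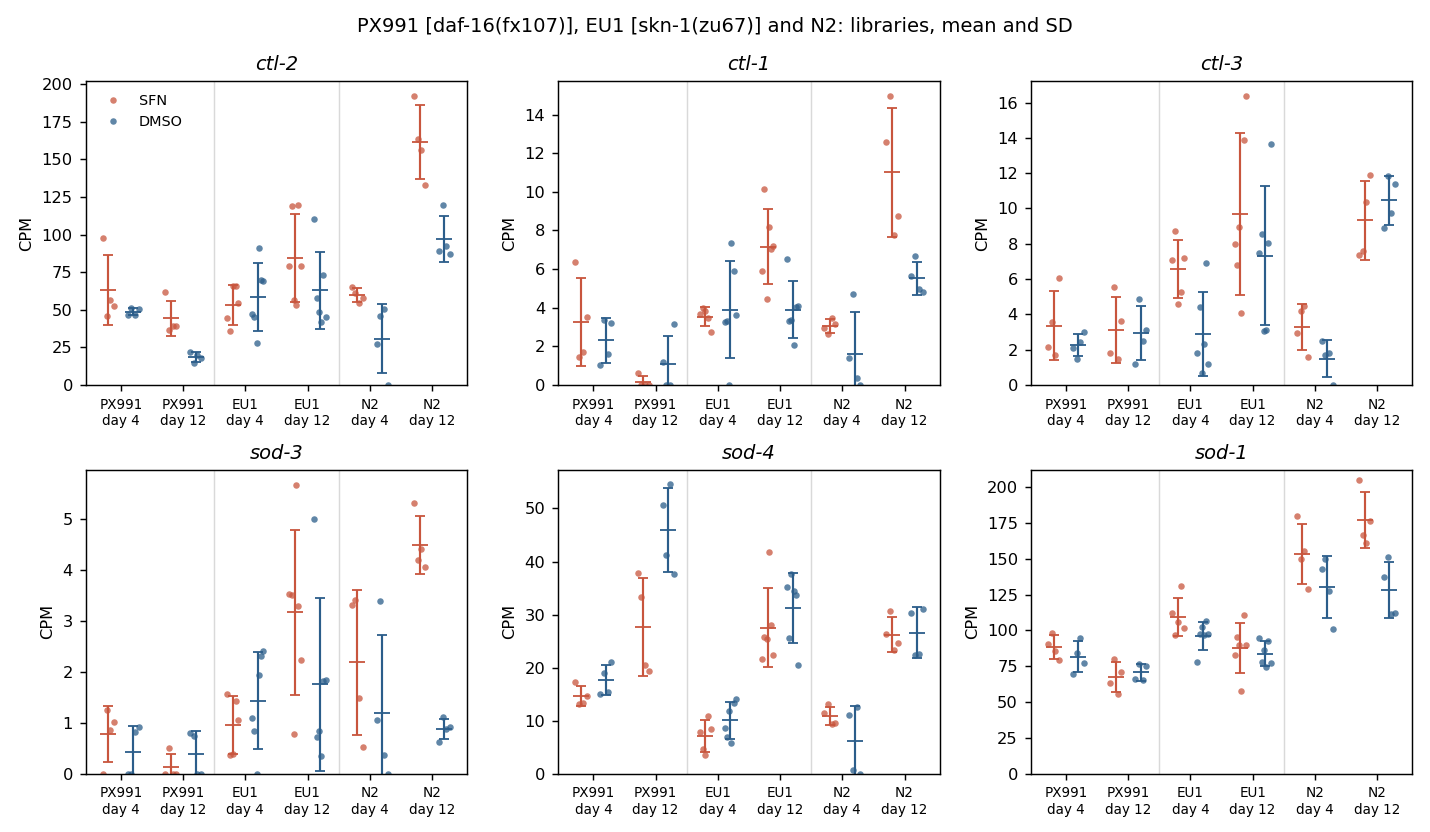
CPM of ctl-2, ctl-1, ctl-3, sod-3, sod-4 and sod-1 (vertical axes, linear, from 0) in PX991, EU1 and the N2 treatment experiment at days 4 and 12 on SFN and on DMSO. Points are single libraries with mean and SD (n = 4, except 5 or 6 in EU1). ctl-2 on DMSO at day 12 averages 18.7 CPM in PX991, 62.9 CPM in EU1 and 97.1 CPM in N2.

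Ageing without SFN was tested in the N2 DMSO libraries of trials 2 and 3, in which 6 members could be tested. Against day 2, sod-4 and ctl-3 were higher at days 8, 12 and 16, ctl-1 and ctl-2 at days 8 and 12, and sod-2 at day 16. In all, 1 of 6 members rose at day 4, 4 of 6 at day 8, 4 of 6 at day 12 and 3 of 6 at day 16. Of the 10899 genes tested, 18.4%, 41.6%, 59.2% and 63.6% were called at those ages, and 9.63%, 21.4%, 30.5% and 32.7% were called higher. The member at day 4 was ctl-3 (0.74 ± 0.25, adjusted p = 0.0326), a call that 10 of 24 alternatives lost. No member fell, and these shares of all genes are high, so the counts alone say little about the family.

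sod-4 climbed from day 4 on. Its means in trial 2 were 5.14, 8.95, 14.3, 21.4 and 39.98 CPM at days 2, 4, 8, 12 and 16, and in trial 3 they were 10.4, 8.59, 14.5, 27 and 34.7 CPM. At day 16 the 8 libraries lay between 30.5 and 50.8 CPM, against 2.54 to 12.0 CPM at day 2, with a log2 fold change of 2.36 ± 0.20 (adjusted p = 1.07e-13). That call, and the one at day 12 (1.69 ± 0.20, adjusted p = 1.02e-09), held in each of 25 alternatives, among them either trial alone and the DMSO libraries of the treatment experiment. The call at day 8 (0.98, adjusted p = 0.000156) did not hold in trial 3 alone (0.50, adjusted p = 0.153). It was also lost in the DMSO libraries of the treatment experiment (0.81, adjusted p = 0.191). The same gene rose at day 12 against day 4 in the DMSO libraries of both mutants. In PX991 it had 50.6, 41.2, 54.5 and 37.6 CPM at day 12 and 15.1, 19, 15.4 and 21 CPM at day 4, higher by 1.42 ± 0.22 (adjusted p = 2.54e-05), where 2 of 4 members and 36.1% of genes passed. In EU1 it had 20.5 to 37.6 CPM at day 12 and 5.79 to 14.1 CPM at day 4, higher by 1.66 ± 0.26 (adjusted p = 1.61e-05), where 2 of 7 members and 46% of genes passed. Neither pair of groups overlapped.

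ctl-3 was the other gene that stayed high. In trial 2 its means were 2.43, 5.17, 13.5, 15.9 and 15.9 CPM from day 2 to day 16, and in trial 3 they were 2.11, 2.45, 6.34, 6.23 and 6.94 CPM. The 2 trials started alike and ended with trial 2 above trial 3 in every library from day 8 on. Against day 2 it was higher by 2.11 ± 0.24 at day 8, 2.23 ± 0.24 at day 12 and 2.32 ± 0.24 at day 16 (adjusted p = 1.15e-09, 5.75e-11 and 2.91e-11), in each trial alone too. In EU1 on DMSO it was higher at day 12 than at day 4 by 1.2 ± 0.38 (adjusted p = 0.0134).

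**Figure D4:**
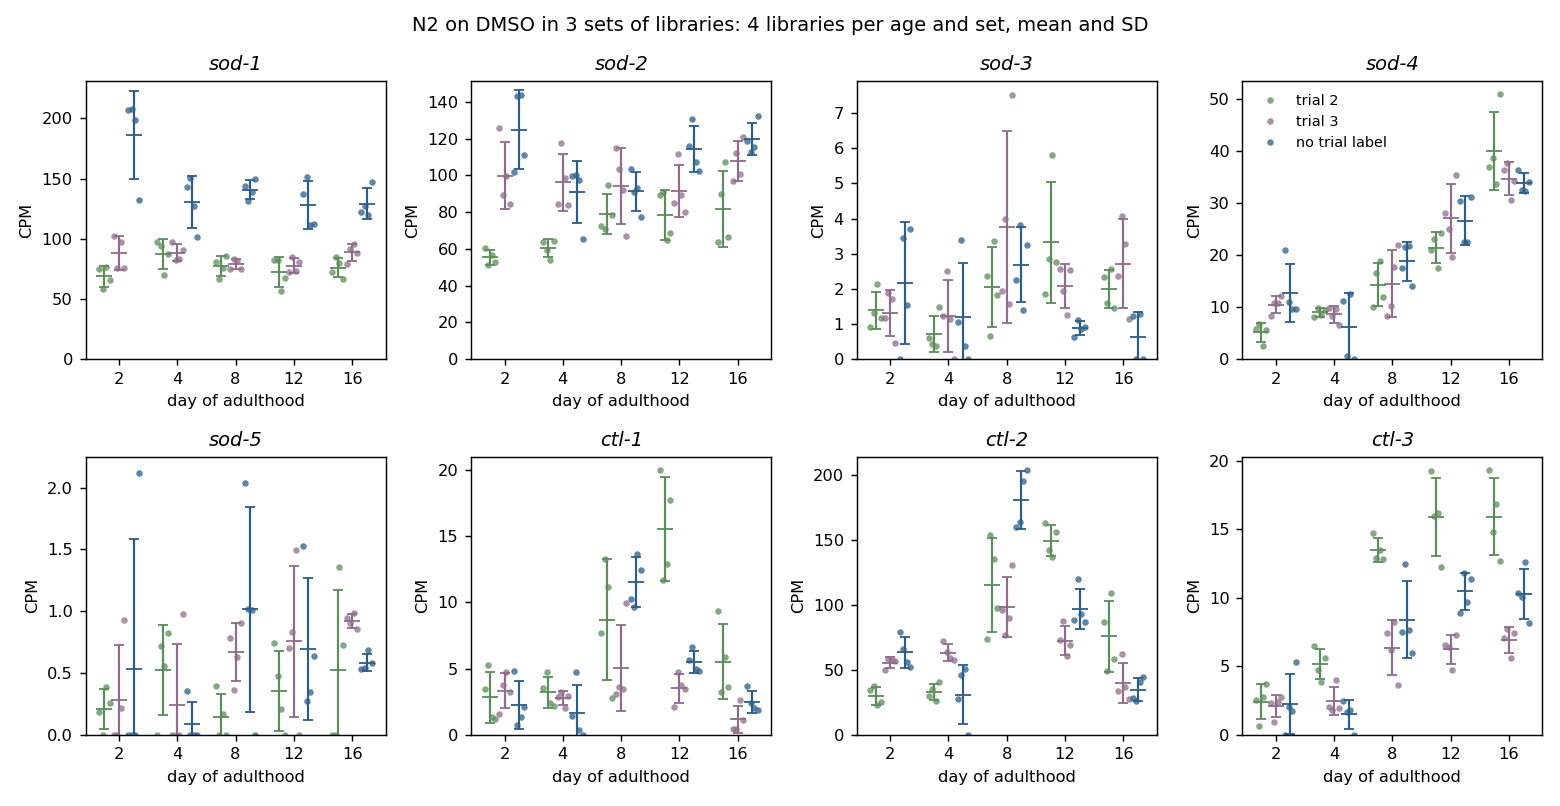
CPM of each member (vertical axes, linear, from 0) by day of adulthood in N2 on DMSO, in trial 2, trial 3 and the treatment experiment, which has no trial label; points are single libraries, 4 per age and set, with mean and SD. sod-4 rises in all 3 sets, to means of 33.8 to 39.98 CPM at day 16, whereas ctl-2 peaks at day 8 or day 12.

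ctl-2 went up and came down again, at a time that differed between collections. In trial 2 its means were 30.1, 32.9, 115.5, 149.6 and 75.8 CPM at days 2, 4, 8, 12 and 16, with the highest mean at day 12. In trial 3 they were 55.6, 63.3, 98.3, 72.5 and 40.01 CPM, with the highest at day 8. Over both trials it was higher than at day 2 by 1.35 ± 0.28 at day 8 (adjusted p = 0.000223) and by 1.39 ± 0.28 at day 12 (adjusted p = 8.27e-05), the second of which was not called in trial 3 alone (0.39, adjusted p = 0.0857) or in the DMSO libraries of the treatment experiment (0.69, adjusted p = 0.0649). At day 16 the pooled difference of 0.48 ± 0.29 (adjusted p = 0.149) covered opposite results: 1.38 in trial 2 alone (adjusted p = 0.0003), -0.48 in trial 3 alone (adjusted p = 0.0466) and -0.77 in the DMSO libraries of the treatment experiment (adjusted p = 0.0384). Against day 8, which was chosen after the values were seen, ctl-2 fell by 0.87 at day 16 over both trials (SE 0.28, adjusted p = 0.0109), where 3 of 6 members and 47.1% of genes passed, and trial 2 alone did not pass (adjusted p = 0.0899).

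ctl-1 followed ctl-2. In trial 2 its means were 2.82, 3.20, 8.70, 15.6 and 5.52 CPM, and in trial 3 they were 3.33, 2.76, 5.04, 3.51 and 1.17 CPM. The pooled rises of 1.19 ± 0.39 at day 8 and 1.46 ± 0.38 at day 12 (adjusted p = 0.0118 and 0.000994) were not called in trial 3 alone, at 0.58 and 0.03 (adjusted p = 0.364 and 0.961).

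In the trials sod-1 lay between group means of 68.8 and 88.8 CPM at all ages and passed against day 2 at none. In the DMSO libraries of the treatment experiment it was lower at day 16 than at day 2 by 0.46 (adjusted p = 0.0171), where the pooled trials gave 0.10 ± 0.09. sod-2 was higher at day 16 than at day 2 by 0.37 ± 0.12 (adjusted p = 0.00851), which neither trial 3 alone (0.13, adjusted p = 0.483) nor the DMSO libraries of the treatment experiment kept (-0.0215, adjusted p = 0.927). At days 8 and 12 the pooled sod-2 values of 0.22 and 0.19 did not pass (adjusted p = 0.156 and 0.17). They passed in trial 2 alone (0.51 and 0.48, adjusted p = 0.00769 and 0.00527), with limma-voom (adjusted p = 0.0394 and 0.0493) and without day 2 trial 3 replicate 1 (adjusted p = 0.0378 and 0.0399). sod-1 in the treatment experiment, at 128 to 186 CPM group means on DMSO, was above all 10 trial groups; the experiments were counted in separate tables, so collection and processing cannot be told apart there. Summed intestine markers fell over the same ages to 1852 to 14500 CPM at day 16, against 61170 to 125200 CPM at day 2, with 12 of 12 lower, while sod-4 and ctl-3 rose; their part in these results was not tested.

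Between days 4 and 12 on DMSO, ctl-2 fell in the PX991 collection and rose in the N2 treatment experiment. In the N2 trials, where this pair of ages was added after the values were seen, 5 of 6 members passed, with 55.3% of genes. ctl-2 was higher at day 12 than at day 4 by 1.23 ± 0.28, ctl-1 by 1.56 ± 0.37, ctl-3 by 1.49 ± 0.22 and sod-4 by 1.44 ± 0.20, and sod-1 was lower by 0.22 ± 0.08 (adjusted p = 0.0227), which 6 of 25 alternatives lost. sod-3, below the count filter in the trials, passed without one (1.53, adjusted p = 0.0019). Trial 3 alone did not keep ctl-1 (0.36, adjusted p = 0.558) or ctl-2 (0.21, adjusted p = 0.351). In PX991 ctl-2 had 21.9, 14.6, 20.1 and 18 CPM at day 12 and 46.9, 51.4, 46.7 and 50.3 CPM at day 4. It fell in that strain, by 1.33 on the log2 scale (SE 0.24, adjusted p = 0.000168). In the N2 treatment experiment it had 88.8, 120, 92.7 and 87.0 CPM at day 12 against 27.4, 45.7, 50.4 and 0 CPM at day 4. The change in PX991 minus that in N2, a contrast added after the values were seen, was -2.80 ± 0.49 for ctl-2 (adjusted p = 0.000155), kept in all 23 alternatives and at -2.59 without N2 DMSO day 4 replicate 4, the library at 0. In this fit 15.1% of genes passed, with an all-gene median of -0.13. The replicates of each strain here were aged and collected together, so the SE holds no spread between collections. Between N2 collections that spread was wide: ctl-2 went from 32.9 to 149.6 CPM between these ages in trial 2 and from 63.3 to 72.5 CPM in trial 3. ctl-1 and ctl-3 were below the count filter in PX991 and entered the fit through the other strains, so no fold change is given for them. Over the 4 PX991 DMSO libraries ctl-1 had 7 counts at day 12 and 29 at day 4, and ctl-3 had 23 at day 12 and 27 at day 4. Over the 4 N2 libraries ctl-1 had 260 at day 12 and 24 at day 4, and ctl-3 had 500 at day 12 and 29 at day 4.

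For EU1 minus N2 the same contrast gave -1.3 ± 0.41 for ctl-2 (adjusted p = 0.0459), where 1 of 7 members and 6.78% of genes passed and 17 of 27 alternatives lost the call, among them leaving out N2 DMSO day 4 replicate 4 (-1.11, adjusted p = 0.0672). Between the mutants, EU1 minus PX991, it was 1.5 ± 0.43 (adjusted p = 0.0353), where 1 of 7 members and 5.94% of genes passed and 11 of 27 alternatives lost it. Both mutants were counted in 1 table and N2 in another, so for levels a difference between a mutant and N2 cannot be told apart from one between the tables. For the change with age, a difference between a mutant and N2 cannot be told apart from one between collections.

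At one age, ctl-2 on DMSO was also higher in EU1 than in PX991. At day 12 it had 41.6, 53.3 and 110 CPM in EU1 (lowest, median and highest of 6) and 14.6 to 21.9 CPM in PX991. The groups did not overlap, and the log2 fold change was 1.65 ± 0.34 (adjusted p = 0.00162), kept in 17 of 17 alternatives; 1 of 7 members and 13.3% of genes passed. At day 4 sod-4 was lower in EU1, at 5.79 to 14.1 CPM against 15.1 to 21 CPM in PX991. The fold change was -0.93 ± 0.28 (adjusted p = 0.0208), where 1 of 7 members and 13.9% of genes passed, and it was lost under the replicate block (adjusted p = 0.0711) and without PX991 replicate 2 or 4 or EU1 replicate 2 (adjusted p up to 0.0914).

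The genes around the family in its chemistry did not move as one on SFN in N2. The lists used here and below were chosen with earlier results of these data known. Of all genes tested, 18.8% were called at day 12 and 19.3% at day 16, with 13.8% and 11.9% called higher. Of 9 other genes for hydrogen peroxide removal tested, 2 rose and 1 fell at day 12, and 1 rose at day 16. gpx-5, a glutathione peroxidase, was higher by 2.01 ± 0.30 at day 12 and 1.65 ± 0.35 at day 16. Of 13 thioredoxin and glutathione system genes, 0 rose and 1 fell at day 12, and 1 rose and 2 fell at day 16; the thioredoxin gene trx-3 was the one lower at both ages, by -4.04 ± 0.42 and -1.57 ± 0.36. The medians of these lists lay between -0.04 and 0.09, beside all-gene medians of 0.00 and -0.01.

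ctl-2 encodes a peroxisomal enzyme, and of 16 genes for peroxisome import and beta-oxidation, 6 rose at day 12 and 9 at day 16, and 0 fell, where 13.8% and 11.9% of all genes were called higher. daf-22, a peroxisomal thiolase, had means of 37.7 CPM on SFN and 18.3 CPM on DMSO at day 16 (1.06 ± 0.19), and dhs-28, which acts in the same beta-oxidation pathway, had 65.2 CPM on SFN and 37.2 CPM on DMSO (0.82 ± 0.16). The list's median was 0.79 at day 12 and 0.80 at day 16. In PX991 at day 12, 4 of 15 of these genes rose, and in EU1 at day 12, 1 of 16, beside 4.69% and 19.3% of all genes called.

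Among 8 genes for metal cofactors and iron storage, 2 rose at day 12 and 4 at day 16, beside the same 13.8% and 11.9% of all genes. The metallothionein gene mtl-1 had 331 CPM on SFN and 75.1 CPM on DMSO at day 16 (2.15 ± 0.24), and the ferritin gene ftn-2 had 106 CPM on SFN and 68.6 CPM on DMSO (0.63 ± 0.14). Of 18 other known DAF-16 target genes tested, 9 rose at day 12 and 14 at day 16, with medians of 1.39 and 1.62, beside all-gene medians of 0.00 and -0.01. Of 14 SKN-1 target genes, 8 rose and 1 fell at day 12, and 9 rose and 1 fell at day 16, with medians of 1.74 and 1.68. Because the lists were chosen with earlier results known, these counts and medians are a description and no independent support. In PX991 at day 12, 4 of 16 DAF-16 target genes rose and 1 fell, among them the lysozyme gene lys-7, which was higher by 3.09 ± 0.44; 4.69% of all genes were called there.

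Of 20 genes that regulate the family, 4 rose at day 12 and 5 at day 16 and 0 fell, where 18.8% and 19.3% of all genes were called in either direction and 13.8% and 11.9% were called higher. hif-1, the hypoxia-inducible factor, was higher by 0.70 ± 0.13 and 0.65 ± 0.14, and wdr-23, which restrains SKN-1, by 0.41 ± 0.11 and 0.35 ± 0.11. Of 16 genes that make superoxide or hydrogen peroxide, 4 rose and 1 fell at day 12, and 2 rose and 1 fell at day 16. The risen ones included acox-1.1, a peroxisomal acyl-CoA oxidase, at 28.5 CPM on SFN and 14.5 CPM on DMSO at day 16.

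Across the 28 group means, the patterns most like each member were found among 13614 genes by Pearson's r of log2 CPM, as a description over points that share strains, tables and depth. ctl-1 and ctl-2 had dod-6 first (r = 0.84 for each) and each other second (r = 0.83). sod-4 was closest to ttr-34 (r = 0.95), sod-1 to pgk-1 (r = 0.91), sod-2 to pas-5 (r = 0.88), ctl-3 to hil-1 (r = 0.88) and sod-3 to E04F6.9 (r = 0.82).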

How the data were processed

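RNA of whole worms was sequenced with the KAPA mRNA HyperPrep kit, per the labels' protocols. The authors deposited 3 tables of raw read counts per gene, made with featureCounts of Subread 2.0.2 on WBcel235 per the submitters' processing notes. Per the file headers the N2 treatment table used Ensembl release 108 and no strand setting; the aligner is not given in the sources used here. Symbols came from Ensembl release 115, which matched 46926 of 46926 gene identifiers.

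Printed levels are counts per 1000000 library counts (CPM) with TMM factors over all libraries, and RPKM uses the deposited exon length. Comparisons used edgeR 4.0.16 in R 4.3.3 (TMM, filterByExpr, robust quasi-likelihood F test, Benjamini-Hochberg over all genes tested; adjusted p under 0.05 is called). Each fit shared 1 estimate of the spread: 40 N2 libraries (30 residual df), 16 PX991 libraries (12 df), 23 EU1 libraries with a collection term (16 df), 55 libraries for mutant minus N2 (40 df), 40 trial libraries with a trial term (34 df) and 39 mutant libraries (28 df). DESeq2 1.42.0, limma-voom (limma 3.58.1), RLE scaling, other filters, a replicate block and leaving out libraries were the alternatives. The script was tested on simulated data. An SE is the log2 fold change over the root of F.

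The replicates are biological per the labels and were aged and collected together, except EU1 replicates 4 to 6, which the labels call independent in time. The collection term gives replicates 1 to 3 of EU1 1 level and replicates 4, 5 and 6 a level each. Same-numbered libraries of EU1 on SFN and DMSO correlated at 0.114 to 0.413 in all 6 pairs at day 12 and at 0.093 to 0.213 in 5 pairs at day 4. Not every library correlated best with its own number at either age. In every other comparison checked, the lowest pair was at 0.019 or below. The block changed no member's call in EU1 at day 12. No 2 of the 199 replicate pairs held the same counts.

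The 8 genes and the 15 gene lists used beside them were chosen with earlier results of these data known. From each list at most 4 genes per comparison could be named, those called with the smallest adjusted p.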

Additional observations from a re-analysis of the deposited data

Results flagged for a closer look

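A library far from the rest of its group was found for 20 of 222 combinations of a member and a group. The cut-off flags about 1 in 20 groups of normally distributed values. A group with reads in only 1 library is always flagged, so that rate does not apply to the members with few counts. For the abundant dismutases, sod-1 was low in N2 DMSO day 2 replicate 4 (132 CPM, others 198 to 208) and in EU1 DMSO day 4 replicate 1 (78.1 CPM, others 96.8 to 107). sod-2 was low in N2 DMSO day 4 replicate 4 (65.5 CPM, others 97.4 to 100.5), the shallowest library, and in EU1 SFN day 12 replicate 4 (47.9 CPM, others 104.4 to 127). That EU1 library was also the highest for sod-4 (41.9 CPM, others 21.7 to 28). sod-4 was high in N2 DMSO day 2 replicate 1 (21 CPM, others 9.53 to 10.9), where 13 counts stand behind it.

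sod-3 was low in N2 SFN day 2 replicate 4 (0.880 CPM, others 3.02 to 3.24) and high in EU1 DMSO day 12 replicate 1 (5.00 CPM, others 0.344 to 1.84). It had its only count of PX991 SFN day 12 in replicate 2 (0.504 CPM). sod-5 stood out on 1 to 8 counts in N2 DMSO day 2 replicate 4 (2.12 CPM), N2 DMSO day 4 replicate 1 (0.354 CPM), day 4 trial 3 replicate 4 (0.975 CPM), PX991 DMSO day 12 replicate 2 (0.374 CPM), PX991 SFN day 12 replicate 1 (0.600 CPM) and EU1 SFN day 4 replicate 5 (1.42 CPM).

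Among the catalases, ctl-1 was high in N2 DMSO day 8 trial 3 replicate 4 (9.93 CPM, others 3.12 to 3.63) and had its only count of PX991 SFN day 12 in replicate 1 (0.600 CPM). ctl-2 was highest in that same PX991 library (61.8 CPM, others 36.8 to 39.4) and low in N2 DMSO day 2 trial 3 replicate 1 (49.5 CPM, others 56.9 to 58.4). ctl-3 was high in N2 DMSO day 4 trial 3 replicate 3 (4.00 CPM, others 1.80 to 2.06).

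Some effects differed between groups by a test of the difference. The SFN effect in N2 differed between ages for ctl-2 (adjusted p = 4.29e-05) and sod-1 (adjusted p = 0.0491, lost in 32 of 47 alternatives). The change at day 16 against day 8 in N2, SFN minus DMSO, was chosen after the values were seen. It was 1.85 for ctl-2 and 1.83 for ctl-1 on the log2 scale, and 8 of 21 alternatives lost the ctl-1 call. The change at day 12 against day 4 on DMSO, also chosen after the values were seen, was -2.80 for ctl-2 in PX991 minus N2. The fit also gave -2.92 for ctl-1 and -2.06 for ctl-3, but both were below the count filter in PX991, with 7 and 23 counts over its 4 DMSO libraries at day 12, so these values support no difference. For ctl-2 the same change was -1.3 for EU1 minus N2, lost in 17 of 27 alternatives, and 1.5 for EU1 minus PX991, lost in 11 of 27.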

How the results depend on the processing

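Of 4078 recomputed values of single members, 3859 kept their direction and side of the threshold (2698 of them uncalled both ways, 168 of those with the other sign), 150 lost a call, 62 gained one and 7 turned round. The calls of ctl-2 in N2 at days 12 and 16 and in PX991 at day 12, of ctl-1 in N2 at day 16 and of sod-1 and sod-3 in N2 at day 12, and of sod-4 and ctl-3 at days 12 and 16 of the trials held in every alternative run on them. The causes below were not tested, except that a strict filter leaves few members to test and trials alone have fewer libraries. sod-3, sod-5, ctl-1 and ctl-3 are limited by depth, with medians of 6, 1, 13 and 20 counts per library.

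Members called moved as follows. In N2 at day 2, 0 became 1 with limma-voom and 2 without the 2 DMSO libraries with the fewest genes; at day 4, 0 became 1 with RLE, DESeq2 or no filter; at day 8, 1 became 2 with limma-voom or only the 2 groups; at days 12 and 16 and in the test across ages the strict filter left 1, and no filter left 1 across ages. In PX991 at day 12 DESeq2 gave 2. In EU1 at day 12 DESeq2, no filter and only the 2 groups gave 1, and the strict filter left 0 at day 12 against day 4. For PX991 minus N2 at day 12 RLE, DESeq2 and the strict filter gave 1; for EU1 minus N2, no filter gave 1 at day 4, and DESeq2, the strict filter and limma-voom gave 1 at day 12. In the trials, day 4 gave 0 with no filter, the strict filter or trial 3 alone and 2 with limma-voom or trial 2 alone, and days 8 and 12 gave 2 with the strict filter or trial 3 alone, against 5 at both ages with limma-voom and 5 and 6 in trial 2 alone. For EU1 against PX991, day 4 gave 0 with the strict filter or the replicate block, and day 12 gave 3 with DESeq2 or limma-voom and 2 with no filter or no collection term.

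Leaving out 1 library gave 0 to 1 members in N2 at days 2, 4 and 8, 3 to 4 at days 12 and 16 and 1 to 3 across ages, 1 to 2 in PX991 at day 12, 0 to 2 in EU1 at day 12 and 2 to 3 at its day 12 against day 4. In the trials it gave 0 to 1 at day 4 and 4 to 6 at days 8 and 12, and for EU1 against PX991 0 to 1 at day 4 and 1 to 2 at day 12.

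The trials' ageing values turned round in the N2 DMSO libraries of the treatment experiment for sod-1 at day 4 (-0.47) and day 16 (-0.46), ctl-3 at day 4 (-0.46), sod-2 at day 16 (-0.0215) and ctl-2 at day 16 (-0.77), and in trial 3 alone for ctl-1 (-1.41) and ctl-2 (-0.48) at day 16. Outside the comparisons of SFN with DMSO in EU1 the replicate block pairs libraries by number alone. It changed the count of called members in no comparison other than EU1 against PX991 at day 4.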
